A study of Mus musculus with 18 samples.

Results

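The transcripts described here are those of 10 genes by which the endothelium, the cell layer that lines blood and lymph vessels, is commonly recognized in whole fat: Cdh5, Cldn5, Esam, Pecam1, Tie1, Tek, Kdr, Flt1, Vwf and Egfl7. They were chosen by name, as the genes of the count table whose Ensembl identifiers carry these symbols in GENCODE M21, and all 10 were found among the 16452 genes of the table. RNA was sequenced from whole epididymal white adipose tissue (eWAT) of wild-type C57BL/6 male mice of a generation called Fm. By the labels these males descend from zygotes that received a microinjection, of miR-let-7e, of miR-let-7d or of a negative control, and every treatment label begins with IVF, so the controls share that procedure. All of them ate chow up to week 6 and then the diet called LFD up to week 15, while 24 weeks is given as their age, and which of these ages applies to the tissue cannot be settled from the labels. The 17 libraries analysed are 5 of the control, 6 of let-7d and 6 of let-7e, and each is named below by its group and replicate number. The library identifiers fall into an early series of 4 plain numbers, namely replicates 1 and 2 of both injected microRNAs, and 13 late ones that begin with A. All 5 controls are late, and the labels do not say what the series stand for. The labels do not say which males share a sire, litter or cage, so p-values measure the spread between these libraries.

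In the vessel wall, endothelial cells are held together by adherens junctions, built around VE-cadherin, and by tight junctions, built around claudins. The VEGF receptors and the Tie receptors sit on the same cells and read growth factors made largely by their neighbours: in fat, adipocytes are a main source of VEGF-A, and pericytes and mural cells make angiopoietin-1. The capillaries of white fat also carry fatty acids from the blood to adipocytes, so that their density and their tightness belong to the textbook account of how the tissue stores lipid. A let-7 microRNA represses transcripts in which its seed finds a match.

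The sequences below show how alike the 2 injected microRNAs are and the endothelial microRNA that is carried within Egfl7. They are mature mouse sequences from RefSeq (GRCm38.p6), written 5′ to 3′ with the seed, bases 2 to 8, in capitals.
mmu-let-7d-5p: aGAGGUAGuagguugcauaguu
mmu-let-7e-5p: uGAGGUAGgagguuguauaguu
mmu-miR-126a-3p: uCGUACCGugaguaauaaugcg
The let-7d and let-7e sequences differ at 3 of 22 positions, A1U, U9G and C16U, counted from the 5′ end and written with the let-7d base first, and they have the same seed. The mature let-7d sequence lies at chr13:48536078-48536099 on the minus strand and that of let-7e at chr17:17830366-17830387 on the plus strand. The miR-126a sequence, at chr2:26591402-26591423 on the plus strand, lies inside Egfl7 and has another seed. A complete match to the let-7 seed, CTACCTC on the transcript strand, was present in the 3′ untranslated region of Esam alone among the 10 genes, where it begins at base 119 of that region. It is shown in capitals with its flanks.
Esam: gtcctttgctcCTACCTCcttctattgtt
Such a match is held by 10.4% of 14161 genes with an annotated 3′ untranslated region, against 1 of 10 here, and it is a match of letters, not a measured site.

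By position (GRCm38, GENCODE M21), the junction genes lie at chr8:104101625-104144511 on the plus strand (Cdh5), chr16:18776847-18778262 plus (Cldn5), chr9:37528078-37538319 plus (Esam) and chr11:106654217-106750628 minus (Pecam1). The Tie receptor genes are both on chromosome 4, at 118471191 to 118490061 minus (Tie1) and 94739289 to 94874976 plus (Tek), and the VEGF receptor genes both on chromosome 5, at 75932827 to 75978458 minus (Kdr) and 147561604 to 147726011 minus (Flt1). Vwf lies at chr6:125546774-125686679 plus and Egfl7 at chr2:26580014-26593120 plus. All are protein-coding, and values count reads over the exons of a whole gene. Egfl7 shares 64 bases with Agpat2 on the other strand, which stood at a mean of 653 CPM (the usual depth-scaled count, here scaled by TMM), and 6482 bases with the predicted gene Gm20532. An antisense gene, Gm29682, shares 4249 bases with Cdh5. These shared bases are those of whole gene spans, introns included. Gm20532 lies on the same strand as Egfl7, so strand could not separate reads of exons they share. Whether the counting used strand is not given in the sources used here, so reads of bases shared with Agpat2 or Gm29682 cannot be told apart either. No value of Gm20532 or Gm29682 is used.

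Every one of the 10 transcripts was detected in every library, with 677 to 10723 reads per gene and library, so counting error is small beside the spread between libraries. Per kilobase of exon, Cldn5 stood highest, at a mean of 165 ± 56.3 CPM per kb (SD, n = 17), followed by Cdh5 at 83.9 ± 17.7. Pecam1 (45.6 ± 6.75), Esam (45.0 ± 6.18) and Egfl7 (40.7 ± 6.46 CPM per kb) came next and did not differ beyond their SD. Tie1 stood at 27.3 ± 8.37 and Kdr at 20.8 ± 4.09 CPM per kb, again within the SD of Tie1, and Tek at 13.2 ± 2.35. Flt1 (9.55 ± 1.57) and Vwf (6.30 ± 3.41 CPM per kb) were lowest and lay within the SD of Vwf. The genes of claudin-5 and VE-cadherin thus stood highest per kilobase of exon, and Flt1 and Vwf, with 13504 and 16064 exon bases, lowest. Exon bases are those of all annotated transcripts of a gene merged, not the length of a single transcript. The order therefore depends on the annotation too. Relative spread over the 17 libraries was widest for Vwf, with a coefficient of variation of 54.2%, Cldn5 (34.1%) and Tie1 (30.7%), and narrowest for Esam (13.7%).

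In the label's tissue, the fat cell genes of the adipocyte list (Adipoq, Lep, Plin1 and others) summed to 14715 to 32180 CPM in every library. Total counts ran from 12717365 to 28972306 per library. Transcripts of neighbouring organs or of epithelium stood high in 4 libraries. In control 3 the epididymis and vas deferens list summed to 17464 CPM, against at most 27.6 in any other library, and the smooth muscle list to 11907 CPM, against 92.0 to 537. Control 6 held the spermatid list at 1136 CPM, and the absorptive and ciliated epithelium list stood at 538 CPM in let-7d 1, 289 CPM in control 3 and 238 CPM in let-7d 5, against at most 40.6 CPM elsewhere. Control 3 was also the lowest control for 7 of the 10 endothelial genes, and the lowest of all 17 libraries for Esam, Pecam1, Tek, Kdr and Flt1. Results are therefore also given without these 4 libraries. Of the platelet genes, Pf4, Itga2b, Gp1ba and Ppbp summed to 26.0 to 45.0 CPM in every library, and the part of platelets in Vwf, Esam and Pecam1 was not tested.

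**Figure D1:**
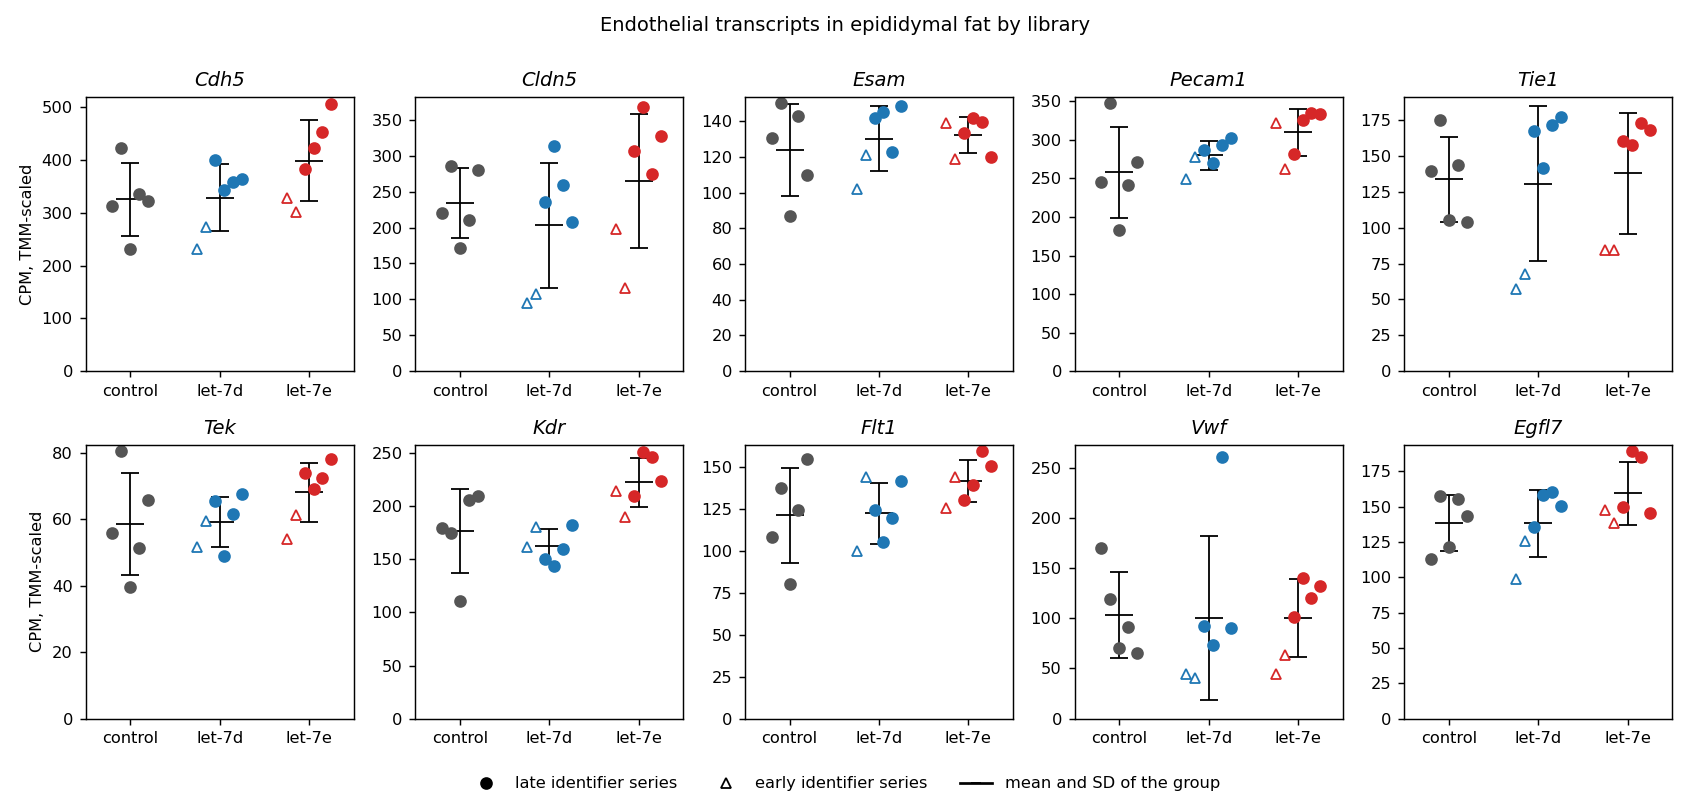
Level of each endothelial transcript by library, in TMM-scaled CPM on axes that start at 0; filled circles are late and open triangles early libraries of the control, let-7d and let-7e groups, and the bars give each group's mean and SD. The 4 early libraries lie below all 8 late let-7 libraries for Cdh5, Cldn5, Tie1 and Vwf, and 1 let-7d library stands apart for Vwf at 261 CPM.

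Among the junction genes, Cdh5, which encodes VE-cadherin, stood at 313, 424, 232, 337 and 323 CPM in the 5 controls (replicates 1 to 4 and 6). In let-7d libraries its lowest, median and highest levels were 231, 352 and 400.0 CPM, and in let-7e libraries 301, 403 and 506 CPM. The 3 groups overlapped, and the 2 highest let-7e libraries, both late, lay above every control. Cldn5, the claudin that seals endothelial tight junctions, stood at 221, 286, 172, 211 and 281 CPM in the controls, with a lowest, median and highest level of 94.7, 222 and 314 CPM among let-7d libraries, against 116, 291 and 368 CPM for let-7e. Its lowest values in both injected groups came from the early libraries. Esam, an adhesion molecule of endothelial contacts and platelets, stayed in a narrow range, at 87.1 to 150.3 CPM in controls, 102 to 149 in let-7d and 119 to 142 in let-7e. Pecam1, the surface protein CD31 of endothelium, platelets and leukocytes, ranged from 183 to 347 CPM in controls, 249.5 to 302 in let-7d and 263 to 335 in let-7e, with the controls spanning both other groups.

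Of the Tie receptors, Tek encodes the receptor of the angiopoietins and Tie1 a relative that joins its signal and has no ligand of its own in the textbook account. Tie1 stood at 139.6, 175, 105, 144 and 104 CPM in the controls. In let-7d it was at 57.5 and 67.8 CPM in the early and at 168, 142, 172 and 177 CPM in the late libraries. In let-7e it was at 84.2 and 84.1 CPM in the early and at 160.2, 158, 173 and 168 CPM in the late libraries. The 4 early libraries thus held the 4 lowest values of all 17, under the controls too. Tek varied far less, from 39.6 to 80.4 CPM in controls, 48.8 to 67.8 in let-7d and 54.1 to 78.1 in let-7e, and its early libraries lay among the late ones.

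The VEGF receptor Kdr, the main signalling receptor for VEGF-A, stood at 179.9, 175, 111, 206 and 210.1 CPM in the controls. Its lowest, median and highest levels were 144, 160.5 and 182 CPM in let-7d and 189.8, 219 and 251 CPM in let-7e. All 6 let-7e libraries lay above all 6 let-7d libraries, and the controls overlapped both. Flt1, which binds VEGF-A and VEGF-B tightly and signals weakly, ranged from 80.2 to 155 CPM in controls, 99.9 to 144 in let-7d and 126 to 159 in let-7e.

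The secreted products were Vwf, the clotting glycoprotein that endothelium stores and releases, and Egfl7, a matrix protein of growing vessels. Vwf stood at 169.7, 119, 70.7, 91.5 and 65.7 CPM in the controls, at 44.9, 40.7, 91.7, 73.1, 261 and 90.4 CPM in let-7d 1 to 6, and for let-7e 1 to 6 at 44.4, 63.1, 102, 139.9, 120.2 and 132 CPM. The library let-7d 5 held the highest level and the 4 early libraries the 4 lowest. Egfl7 lay between 113 and 158 CPM in controls, 98.6 and 161 in let-7d and 138 and 189 in let-7e.

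Let-7e against control asks whether the fat of males that descend from let-7e zygotes differs from that of control males. With the identifier series accounted for, the fitted log2 fold change was above 0 for all 10 endothelial genes, with a median of 0.32, against a median of -0.04 and a share above 0 of 41.9% over all genes. None of the 10 passed the correction over all genes, and nor did any other of the 16452 genes (0% called by edgeR, 0 by limma-voom and 15 genes, all lower and none of these 10, by DESeq2). In a bulk tissue, fewer cells of a type and less RNA per cell cannot be told apart. Cdh5 had the smallest p, at a log2 fold change of 0.45 (SE 0.13, edgeR adjusted p = 0.356). Cldn5 stood at 0.50 (SE 0.17, edgeR adjusted p = 0.365), Tie1 at 0.37 (SE 0.14), Kdr at 0.35 (SE 0.14), Egfl7 at 0.31 (SE 0.12) and Pecam1 at 0.31 (SE 0.13). Those 6 had an unadjusted edgeR p under 0.05, where 2.52% of all genes did so in the same direction (415 higher and 1314 lower). Vwf (0.32, SE 0.33), Tek (0.29, SE 0.15), Flt1 (0.24, SE 0.15) and Esam (0.16, SE 0.13) did not. For none of the 10 did the let-7e libraries lie wholly above the controls, as they did for 0.249% of all genes.

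The size of these differences depended on which libraries were read. Without the 4 libraries that hold transcripts of other organs or epithelium, 8 of 10 log2 fold changes were above 0, where 53.4% of all genes were. The median of the 10 was 0.21: Cdh5 stood at 0.31, Cldn5 at 0.46, Tie1 at 0.16 and Esam at -0.03. Leaving out control 3 alone gave a median of 0.23. Without the series term, which sets the early let-7e libraries against late controls, 9 of 10 were above 0 (42.7% of all genes). The median was 0.21 and Tie1 stood at 0.05. Within the late series alone, 10 of 10 were above 0 (44% of all genes) with a median of 0.32, and no gene was called. The early series holds no control, so no value exists within it. The plain level of the 10 genes, their mean log2 CPM, was 7.38 ± 0.26 in let-7e and 7.20 ± 0.28 in controls (SD), a difference of 0.18 that is smaller than the SD of the controls. Set against the adipocyte list in the same library, this difference was 0.02. Both values pool early and late let-7e libraries, while all controls are late. For the late let-7e libraries alone the difference from controls was 0.34, larger than the control SD of 0.28. Set against the adipocyte list it was 0.12, where the control SD was 0.18. The adipocyte list itself had 9 of 10 fold changes above 0 (median 0.16, 0 called), and 2 of 10 (median -0.05) without the 4 libraries. The part of tissue makeup in the endothelial values was not tested.

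Let-7d against control, which shares its controls with the comparison above, gave smaller values. The log2 fold change was above 0 for 9 of the 10 genes, where 42.5% of all genes were, with a median of 0.11, and none of the 10 had an unadjusted edgeR p under 0.05, where 10.2% of all genes did. None had all let-7d libraries above all controls, as 0.176% of genes had. Tie1 stood at 0.23 (SE 0.13, edgeR adjusted p = 0.563), Cdh5 and Pecam1 each at 0.16 (SE 0.13), Cldn5 at 0.07 (SE 0.17) and Flt1 at 0.04 (SE 0.15). Kdr was the 1 gene below 0, at -0.10 (SE 0.14). Vwf stood at 0.26 (SE 0.32), and without let-7d 5, the library with 261 CPM, at -0.24; without the 4 libraries it stood at -0.54 (adjusted p = 0.623, with 0.623 to 0.972 over the alternatives). Without control 3 the median of the 10 was 0.05 and 6 of 10 were above 0, where 49.7% of all genes were. Without control 2 the median was 0.22, and without the series term it was 0.01 with 5 of 10 above 0 (45% of all genes). No gene of the table was called (0%) by edgeR or limma-voom, and DESeq2 called 10, none of them among these 10.

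**Figure D2:**
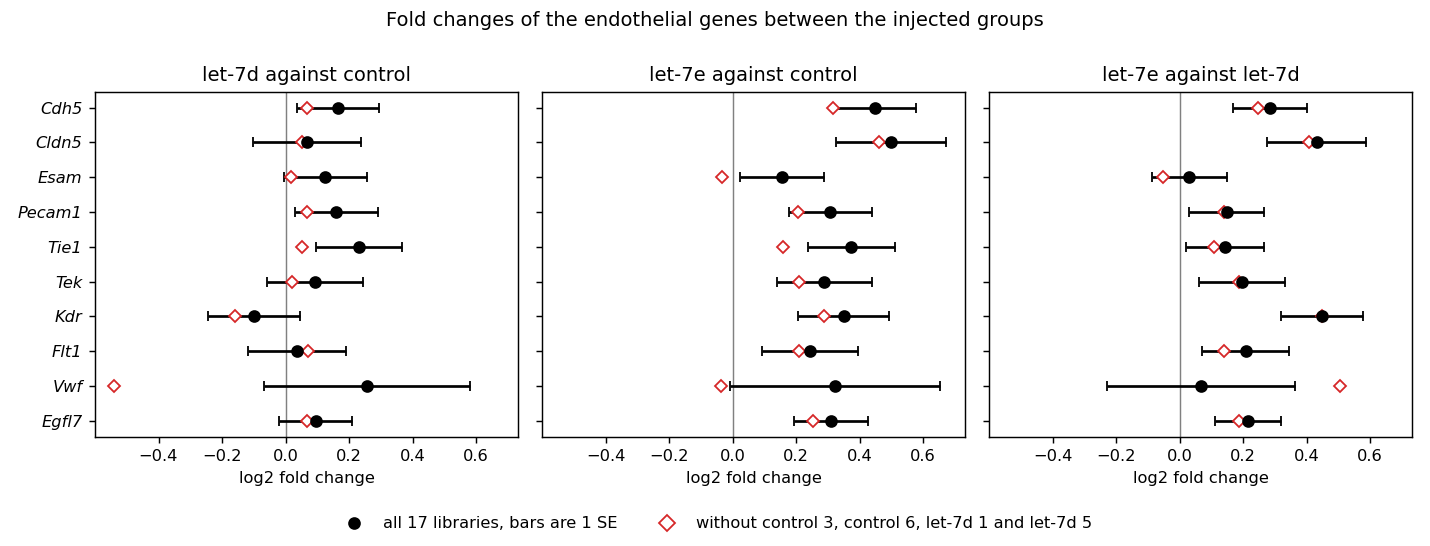
Fitted log2 fold changes of the 10 endothelial genes between the injected groups, with black circles and 1 SE bars for all 17 libraries and red diamonds for the fit without control 3, control 6, let-7d 1 and let-7d 5. For let-7e against control all 10 circles lie above 0 (41.9% of all genes) and 8 of 10 diamonds do (53.4% of all genes). Vwf is the gene whose diamonds move farthest in let-7d against control and let-7e against let-7d.

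Let-7e against let-7d, a contrast that the controls enter only through the shared spread, showed its largest endothelial value in a VEGF receptor, and 10 of 10 genes lay above 0, where 46.9% of all genes did. Kdr stood at 223 ± 23.2 CPM in let-7e and 163 ± 15.4 CPM in let-7d (SD, n = 6 each), a log2 fold change of 0.45 (SE 0.13, edgeR adjusted p = 0.700) that did not pass the correction over all genes. Its 6 let-7e libraries lay above its 6 let-7d libraries, as they did for 0.134% of all genes, and the fold change stayed between 0.39 and 0.56 over the alternatives. Within the late libraries Kdr stood at 0.56, and there Tek also did not overlap between the groups (2.88% of all genes were higher without overlap). Cldn5 followed at 0.43 (SE 0.15) and Cdh5 at 0.28 (SE 0.12), and these 3 had an unadjusted edgeR p under 0.05, where 3.35% of all genes did in this direction. Egfl7 (0.22, SE 0.10), Flt1 (0.21, SE 0.14), Tek (0.20, SE 0.14), Pecam1 (0.15, SE 0.12), Tie1 (0.14, SE 0.12), Vwf (0.07, SE 0.30) and Esam (0.03, SE 0.12) did not. No gene was called by edgeR (0%), where 1097 had an unadjusted p under 0.05, limma-voom called 0 and DESeq2 called 14, none of them among these 10.

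The ligands of these receptors were read beside them, from a list of 10 VEGF and angiopoietin genes of which 0 were called in any comparison between groups. Vegfa, the main ligand of Kdr, stood at a mean of 332 CPM in controls, 235 CPM in let-7d and 336 CPM in let-7e. Its log2 fold change was -0.52 (SE 0.17, edgeR adjusted p = 0.456) in let-7d against control and 0.52 (SE 0.15, edgeR adjusted p = 0.700) in let-7e against let-7d. Vegfd, a ligand best known for lymphatic growth, stood at 32.3 CPM in controls and 40.2 in let-7d (0.33, SE 0.12), and Apln, the ligand of the apelin receptor, at 16.9 CPM in controls and 26.0 in let-7e (0.70, SE 0.32). Angptl4, an inhibitor of lipoprotein lipase made by adipocytes, stood at 629 CPM in let-7d and 792 in let-7e (0.34, SE 0.15). Among 12 co-receptor and Notch genes, 10 lay above 0 in let-7e against control (median 0.26, 0 called). They were led by Nrp1, the co-receptor of Kdr, at 0.38 (SE 0.14), and Dll4, the Notch ligand of sprouting tip cells, at 0.56 (SE 0.22). Nrp1 stood at 0.44 (SE 0.13) in let-7e against let-7d.

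No gene of the other vascular lists was called in let-7e against control, and the share of all genes above 0 was 41.9%. There, 20 of 20 other pan-endothelial genes lay above 0 (median 0.26), with Mmrn2, a matrix protein of the vessel surface, at 0.44 (SE 0.16) and Ramp2, a partner of the adrenomedullin receptor, at 0.42 (SE 0.16). Endothelial transcription factors lay above 0 in 12 of 14 (median 0.22), among them Erg at 0.36 (SE 0.14) and Sox7 at 0.57 (SE 0.25). Basement membrane genes lay above 0 in 9 of 10 (median 0.41), with the collagen IV chains Col4a2 at 0.43 (SE 0.16) and Col4a1 at 0.39 (SE 0.15). Genes of capillary lipid uptake lay above 0 in 7 of 8 (median 0.30), with Meox2, a transcription factor of fatty acid uptake in capillaries, at 0.50 (SE 0.21) and Cav1, the coat protein of caveolae, at 0.36 (SE 0.16). The arterial list lay above 0 in 7 of 7 (median 0.21), the venous list in 4 of 7 (0.05) and the lymphatic list in 2 of 5 (-0.01). Pericyte and mural genes lay above 0 in 6 of 10 (median 0.14), with Mcam at 0.55 (SE 0.19). Des, a muscle and mural filament gene, stood at 1451 CPM in control 3, the library with smooth muscle and vas deferens transcripts, at 32.3 to 37.0 CPM in the other 4 controls and at 25.2 to 46.3 CPM in let-7e. Its log2 fold change was -3.02 (SE 0.96) with control 3 and 0.20 (SE 0.16) without it. Control 3 was also the lowest control for the other pan-endothelial list, at 1215 CPM in sum against 1699 to 2034 CPM, and for the basement membrane list, at 7209 against 8926 to 12927 CPM (the rest of the controls). Without it, 19 of 20 other pan-endothelial genes (median 0.17), 9 of 14 transcription factors (0.14), 10 of 10 basement membrane genes (0.37), 6 of 8 capillary genes (0.21) and 5 of 7 arterial genes (0.20) lay above 0. In that fit 47.8% of all genes did. In let-7d against control, which shares the 5 controls, 13 of 20 other pan-endothelial genes (median 0.07), 7 of 14 transcription factors (-0.02), 8 of 10 basement membrane genes (0.18) and 4 of 8 capillary genes (0.03) lay above 0, where 42.5% of all genes did, and 0 were called. Without control 3 these were 10 of 20 (median -0.0062), 6 of 14 (-0.12), 8 of 10 (0.14) and 3 of 8 (-0.09), where 49.7% of all genes lay above 0.

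Early against late libraries gave the largest differences among the 10 genes. Transcripts of Tie1, Cldn5, Vwf and Cdh5 were lower in the 4 early libraries, while Kdr, Flt1 and Pecam1 stood near the late level. This comparison is of the identifier series within the let-7d and let-7e groups, and what the series stand for cannot be told apart from whatever else they share. Over all genes 12.2% were called (899 higher, 5.46%, and 1106 lower, 6.72%), and 4 of the 10 endothelial genes were called lower and 0 higher. Tie1 stood at 73.4 ± 13.1 CPM in early (SD, n = 4) and 165 ± 11.3 CPM in late let-7 libraries (SD, n = 8), a log2 fold change of -1.18 (SE 0.14, edgeR adjusted p = 5.22e-05). Cldn5 stood at 129 ± 46.6 CPM against 287 ± 52.5 CPM, a log2 fold change of -1.18 (SE 0.17, edgeR adjusted p = 0.000334). The early libraries of both genes lay wholly below the late let-7 libraries. Vwf stood at 48.3 ± 10.1 against 126 ± 58.9 CPM (-1.39, SE 0.33, edgeR adjusted p = 0.0116), and Cdh5 at 283 ± 41.4 against 404 ± 54.6 CPM (-0.51, SE 0.13, edgeR adjusted p = 0.0131), again without overlap. These 4 were the only endothelial members with no overlap between early and late let-7 libraries, where 6.13% of all genes lay lower in that way. The late controls did overlap the early libraries for Cldn5 and Cdh5. Cldn5 in let-7e 1 (197 CPM) lay above control 3 (172 CPM). Cdh5 in let-7e 1 (328 CPM) lay above controls 1, 3 and 6 (313, 232 and 323 CPM).

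The other 6 genes did not pass the threshold. Egfl7 stood at 128 ± 21.2 against 159 ± 18.9 CPM (-0.33, SE 0.11, edgeR adjusted p = 0.0705), and it passed with DESeq2 (adjusted p = 0.0264) and in a fit of the let-7 libraries alone (0.0404; 0.0264 to 0.942 over the alternatives). Tek stood at -0.24 (SE 0.14), Esam at -0.19 (SE 0.13), Pecam1 at -0.13 (SE 0.13), Flt1 at -0.06 (SE 0.15) and Kdr at -0.05 (SE 0.14). The Tie receptors thus had different values, with Tie1 at -1.18 and Tek at -0.24. The junction genes stood at -1.18 (Cldn5), -0.51 (Cdh5), -0.19 (Esam) and -0.13 (Pecam1). The differences between these genes were not tested.

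For the 4 called genes, all early libraries lay below all late let-7 libraries, so the direction within each group was fixed beforehand. Only the size is read here. Over all 16452 genes, 569 were called lower within let-7d and 176 within let-7e, and 2 of the 10 members in each. Within let-7d, Tie1 stood at -1.39 (SE 0.19, edgeR adjusted p = 0.000754), Cldn5 at -1.33 (SE 0.25, edgeR adjusted p = 0.00569), Vwf at -1.59 (SE 0.49) and Cdh5 at -0.54 (SE 0.19). Within let-7e, Tie1 stood at -0.97 (SE 0.18, edgeR adjusted p = 0.0123), Cldn5 at -1.03 (SE 0.24, edgeR adjusted p = 0.0432), Vwf at -1.20 (SE 0.48) and Cdh5 at -0.49 (SE 0.18). Vwf and Cdh5 did not pass within either group, each of which has 2 early and 4 late libraries. A test of whether the early difference itself differs between let-7e and let-7d called 0 of 16452 genes (0%; 305, or 1.85%, at an unadjusted edgeR p under 0.05). Its largest value among the 4 was 0.42 (SE 0.25) for Tie1.

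Base composition moved with this comparison. Over the 14541 genes that averaged 1 CPM or more, the early minus late log2 fold change correlated with the GC content of the longest transcript at Pearson r = -0.40 and Spearman rho = -0.54, a description across genes that share their libraries, against at most 0.05 in size for the 3 comparisons between groups. The endothelial genes differ in GC content, with Cldn5 at 60.5%, Tie1 at 57.6%, Egfl7 at 57.1%, Vwf at 56.5%, Esam at 53.7%, Cdh5 at 52.2%, Flt1 at 50.5%, Pecam1 at 50.2%, Kdr at 49.4% and Tek at 47.1%, where the median gene has 49.6%. Cldn5, Tie1 and Vwf, 3 of the 4 called genes, are among the 4 members richest in GC. With each library's trend with GC content and transcript length removed, which was tried only after seeing the data, 293 genes were called (129 higher and 164 lower). Tie1 stood at -0.89 (SE 0.17, adjusted p = 0.0105, with 1.29e-15 to 0.0360 over the alternatives) and Cldn5 at -0.78 (SE 0.16, adjusted p = 0.0189, with 1.90e-10 to 0.0790), and both remained called. Vwf stood at -1.27 (SE 0.33, adjusted p = 0.0688, with 0.000197 to 0.0708) and Cdh5 at -0.49 (SE 0.16, adjusted p = 0.157, with 0.000591 to 0.157), and neither did. Egfl7, which is as GC-rich as Tie1, stood at -0.04. The part of base composition in these differences was otherwise not tested.

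**Figure D3:**
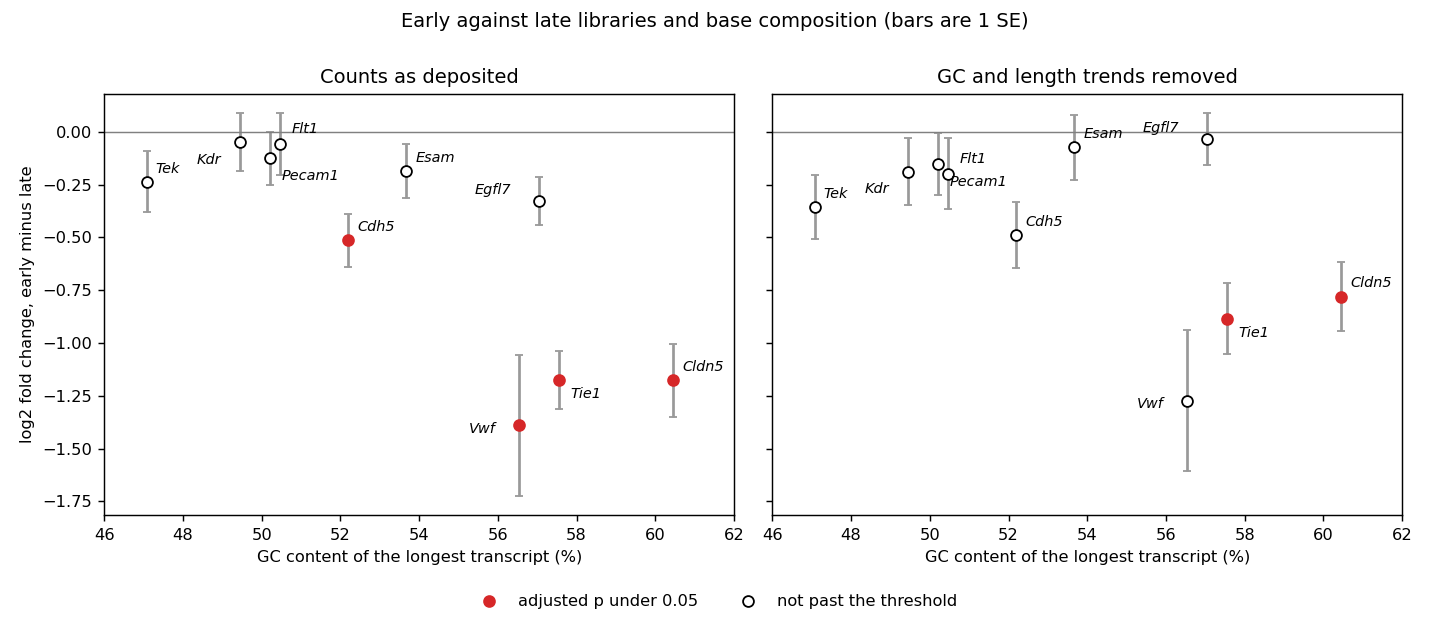
Log2 fold change of early against late libraries for the 10 endothelial genes against the GC content of the longest transcript in percent, from the counts as deposited (left) and with each library's GC and length trends removed (right); bars are 1 SE and red marks an edgeR adjusted p under 0.05. Tie1 and Cldn5 lie near -1.2 on the left and at -0.89 and -0.78 on the right, and Egfl7 moves from -0.33 to -0.04.

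Tie1 and Cldn5 moved together in this comparison, and Kdr and Flt1 did not move with them, so the promoters of these 4 are shown. Each is the 150 bases before the gene's start in RefSeq (GRCm38.p6), on the gene's strand, with GGAA and its complement TTCC, the core recognized by ETS factors such as Erg and Fli1, in capitals. These are Tie1 (chr4:118489850-118489999, minus), Cldn5 (chr16:18776697-18776846, plus), Kdr (chr5:75978456-75978605, minus) and Flt1 (chr5:147726012-147726161, minus). The RefSeq starts of Tie1 and Kdr differ from the GENCODE ends given above, so that the Tie1 stretch lies wholly, and the Kdr stretch by its last bases, inside the GENCODE gene.
Tie1: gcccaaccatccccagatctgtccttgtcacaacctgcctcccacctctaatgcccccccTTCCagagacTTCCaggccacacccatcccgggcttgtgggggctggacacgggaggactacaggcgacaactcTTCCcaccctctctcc
Cldn5: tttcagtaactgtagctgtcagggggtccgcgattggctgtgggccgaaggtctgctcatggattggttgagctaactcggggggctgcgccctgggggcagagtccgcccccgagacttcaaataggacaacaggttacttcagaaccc
Kdr: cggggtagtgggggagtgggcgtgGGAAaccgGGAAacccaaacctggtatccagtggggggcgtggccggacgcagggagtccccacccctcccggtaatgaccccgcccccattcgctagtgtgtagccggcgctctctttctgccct
Flt1: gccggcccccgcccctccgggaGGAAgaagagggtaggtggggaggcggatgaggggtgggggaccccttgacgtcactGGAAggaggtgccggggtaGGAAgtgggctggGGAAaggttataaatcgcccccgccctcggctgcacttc
In the window of 300 bases, 250 before and 50 after the start, the Tie1 promoter held 9 of these cores on both strands together, Kdr 5, Flt1 4, Tek 2 and Cldn5 0. Of 32851 such windows 96% hold at least 1, the median is 3, and 8.02% hold 7 or more. The 4 promoters shown were picked after the fold changes were seen, and the part of these cores in the fold changes was not tested. RefSeq windows matched 6 of the 10 members, and Egfl7 has 3 of them, with 5, 4 and 1 cores.

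The counts of the other vascular lists stand against 6.72% of all genes called lower and 5.46% called higher. Of 20 other pan-endothelial genes 8 were called lower and 0 higher, led by Rasip1, a junction regulator of vessel lumens, at -1.22 (SE 0.13, edgeR adjusted p = 1.98e-05), and Robo4, a receptor that stabilizes vessels, at -1.11 (SE 0.16). Among endothelial transcription factors 3 of 14 were called lower, with Sox18 at -1.14 (SE 0.17), and Fli1 was called higher at 0.78 (SE 0.17). Of 12 co-receptor and Notch genes 4 were called lower, led by Notch4 at -1.01 (SE 0.13) and Jag2 at -0.84 (SE 0.15), and 1, Jag1, was called higher at 0.54 and is named after its value was seen. Vegfb, a ligand of Flt1, was the 1 of 10 ligands called, at -0.65 (SE 0.16). Pericyte and mural genes had 3 of 10 called lower, led by Notch3 at -1.17 (SE 0.18) and Pdgfrb at -0.59 (SE 0.16), and basement membrane genes 3 of 10, led by Col4a2 at -0.77 (SE 0.16). Single genes were called lower in the capillary lipid uptake list (Tcf15, -1.35) and the arterial list (Unc5b, -0.87), 2 of 7 in the venous list (Ephb4, -1.24, and Icam1, -0.65), and 0 of 5 in the lymphatic list. For the ligand, capillary and arterial lists 1 gene called is near the share over all genes. With GC and length trends removed, where 0.998% of all genes were called lower, 7 genes of these lists were called, all lower: Robo4, Eng, Rasip1, Sox18, Flt4, Ephb4 and Notch3, which were named after their values were seen.

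**Figure D4:**
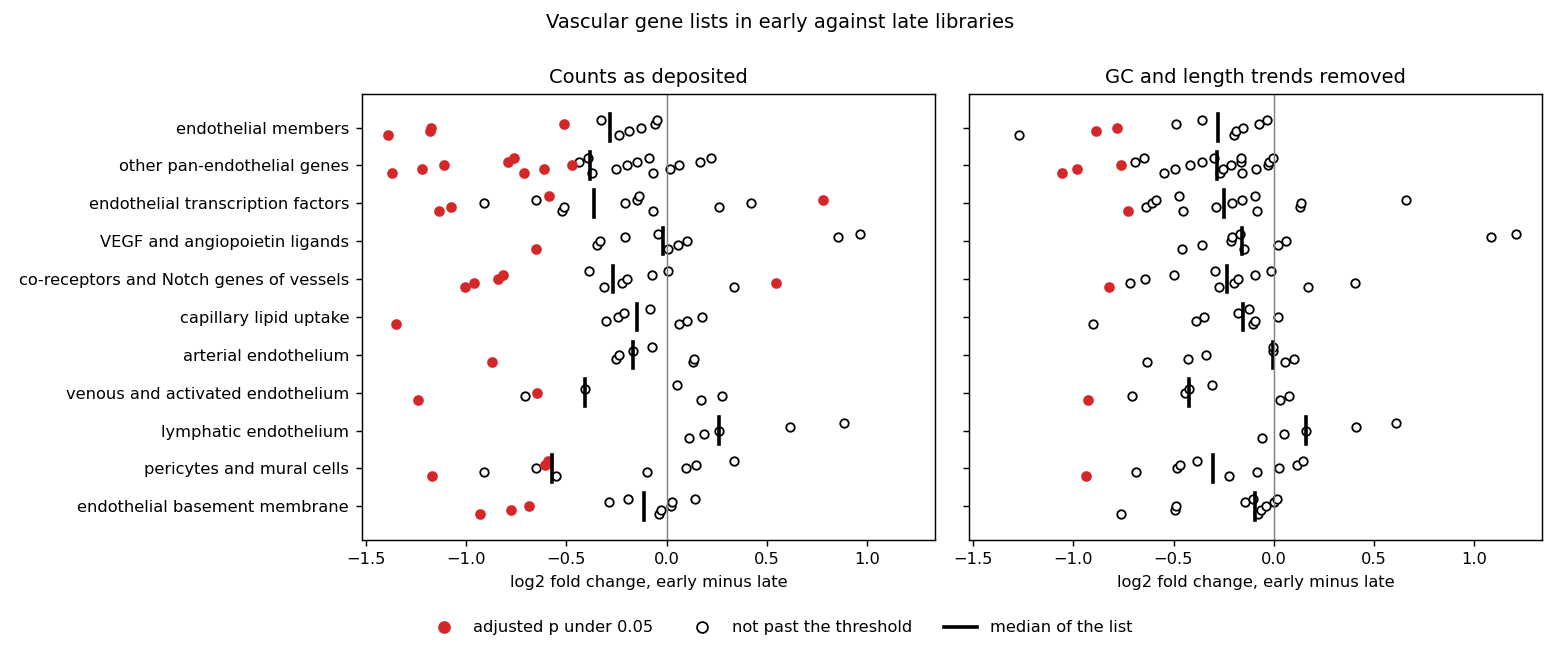
Log2 fold changes of early against late libraries for each measured gene of 11 vascular lists, from the counts as deposited (left) and with GC and length trends removed (right); red marks an edgeR adjusted p under 0.05 and the bar is the list's median. Genes called lower fall from 8 to 3 in the other pan-endothelial list, and from 4 to 2 among the 10 members.

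Some lists of other cell types differed too and others did not, where 6.72% of all genes were called lower. Red cell genes had 2 of 5 called lower (median -1.06) and their list summed to 219 to 379 CPM in early and 414 to 800.1 CPM in late let-7 libraries, without overlap. Adipocyte genes had 2 of 10 called lower (median -0.33), with summed levels of 14715 to 23386 CPM in early and 21955 to 32180 CPM in late let-7 libraries. The platelet list had 0 of 4 called, at 29.9 to 41.1 and 27.4 to 45.0 CPM. Macrophage (0 of 8), lymphocyte (0 of 6), mesothelium (0 of 5) and smooth muscle genes (0 of 5) were not called either. Of the adipose stromal genes, 1 of 8 was called lower. The mean log2 CPM of the 10 endothelial genes was 6.92 in early and 7.44 in late let-7 libraries, a difference of -0.52 against an SD of 0.14 in the late ones. Set against the adipocyte list, this difference was -0.24, where the SD in the late ones was 0.23. The part of the other cell types in the endothelial result was not tested. Without control 3, control 6, let-7d 1 and let-7d 5, the same 4 endothelial genes were called, with Tie1 at -1.07, Cldn5 at -1.10, Vwf at -1.15 and Cdh5 at -0.47. Without let-7d 1 alone, Cdh5 stood at -0.47 (adjusted p = 0.0634) and was not called.

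Among themselves the 10 transcripts varied together only in part. Over the 17 libraries, the 45 pairs had a median Pearson r of log2 CPM of 0.59, from 0.10 for Flt1 and Vwf to 0.84 for Cldn5 and Tie1, a description of libraries that share the series and the groups above. The genes outside the list whose log2 CPM was most like the mean of the standardized members, among 14544 genes compared, were Sh3bp5 (r = 0.95), Arap3 (0.94), Scarf1 (0.92), Mmrn2 (0.92), Hid1 (0.91), Pdgfrb (0.90), Card10 (0.89), Exoc3l (0.88), Ece1 (0.88) and Sez6l2 (0.87). Their GC content ran from 51.4% (Sh3bp5) to 62.1% (Card10), where the median gene has 49.6%. The part of the series and of base composition in this likeness was not tested. Summed over the 10 genes, the level was 1676, 2052, 1203, 1706 and 1729 CPM in the controls, 1191 to 1968 CPM in let-7d and 1479 to 2206 CPM in let-7e. The lowest sums came from let-7d 1 and control 3, and the 3 highest from let-7e 4, 5 and 6.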

How the data were processed

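RNA of 17 libraries was analysed of 18 samples in the labels; control replicate 5 was not analysed here. The values used are raw read counts per gene, as the authors deposited them, aligned with STAR to GRCm38.p6 per the submitters' processing notes; the counting tool and its use of strand are not given in the sources used here. An RPKM table was not used. The members and the 22 gene lists were chosen with earlier results of these data known. Identifiers were matched to GENCODE M21 without version (16438 of 16452 found, 497 with another version number).

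Counts were tested with edgeR 4.0.16 (R 4.3.3), by its quasi-likelihood test with TMM scaling, over all 16452 genes and 17 libraries, with group and identifier series as terms, Benjamini-Hochberg adjustment and a threshold of 0.05. The early against late comparison is the series term of that fit; filterByExpr removed 0 genes. The common biological coefficient of variation was 0.36. CPM are TMM-scaled, and a prior count of 2 was added for log2 CPM. DESeq2 1.42.0, limma-voom (limma 3.58.1), other scalings, a filter, other terms and leaving out libraries were alternatives. Named genes are the 10 members, in each other list up to 2 with the smallest unadjusted p per comparison, and the 10 most alike over libraries. No 2 libraries were alike within sampling noise (lowest chi-square per degree of freedom 14.65).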

Additional observations from a re-analysis of the deposited data

Results flagged for a closer look

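Vwf in let-7d 5, at 261 CPM, lay far from the other 5 let-7d libraries, which ran from 40.7 to 91.7 CPM. The gap to the nearest library was 0.768 of the group's range, above Dixon's critical value of 0.625 for 6 libraries. Of 30 pairs of gene and group looked at, this was the 1 such library, where chance gives about 1 in 20. The same library held the absorptive and ciliated epithelium list at 238 CPM, and its part in the Vwf level was not tested.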

How the results depend on the processing

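Of 1072 member values under alternatives, 1034 kept their direction and their side of the threshold, 30 changed sign, 6 were no longer called and 2 became called. For genes called, DESeq2 gave 10 for let-7d and 15 for let-7e against control, and 14 between let-7e and let-7d, where edgeR gave 0. For early against late, where edgeR called 2005, limma-voom called 3513, the replicate block 44 and the GC and length setting 293, and leaving out 1 library gave 1260 (without let-7d 1) to 2326 (without control 3). The replicate block changes what the early term compares, as given below. The member level relative to the adipocyte list differed by -0.24 in early against late let-7 libraries, with an SD of 0.23 in the late ones. The GC and length setting and the fit without 4 libraries were chosen after seeing the data.

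In let-7d against control, without the series term Cldn5 stood at -0.21, Tie1 at -0.034, Vwf at -0.045 and Egfl7 at -0.0022. Vwf was -0.076 with limma-voom and -0.54 without the 4 libraries. Leaving out 1 library gave -0.014 to 0.15 for Cldn5, -0.0026 to 0.23 for Tek, -0.063 to 0.15 for Flt1 and -0.24 to 0.52 for Vwf. In let-7e against control, Esam was -0.035 and Vwf -0.035 without the 4 libraries, and Vwf -0.045 without the series term. In let-7e against let-7d, Esam was -0.030 with limma-voom, -0.053 in late libraries and -0.052 without the 4, with -0.021 to 0.066 on leaving 1 out; Vwf was -0.060 in late libraries, with -0.055 to 0.46. In early against late, Flt1 was 0.030 with limma-voom and 0.013 without the 4, with -0.18 to 0.024 on leaving 1 out, and Kdr ranged from -0.12 to 0.022. The cause was not tested.

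Whether replicate numbers pair the libraries is not settled by their correlations. Of 16 same-numbered pairs, 6 had a correlation over 0.1 (-0.33 to 0.496), and 3 of 17 libraries correlated best with their own number. The highest was between let-7d 1 and let-7e 1, which are both early, so number and series cannot be told apart there. With the replicate block, Tie1 stood at -1.57 (edgeR adjusted p = 0.0360) and Cldn5 at -1.42 (0.0790) in early against late, and the block called 0 genes in the group comparisons. Replicates 1 and 2 are the early ones in both let-7 groups, so this early term also draws on the same-numbered controls, which are late. It therefore compares something else than early and late within the let-7 groups. The upper limits 0.0360 and 0.0790 given above come from this setting.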
